A study of Mus musculus with 6 samples.

Results

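The genes described here encode proteins that bind the ends of actin filaments without being part of capping protein: the gelsolin family members Gsn and Capg, the adducins Add1 and Add3, the tropomodulins Tmod1, Tmod2 and Tmod3, and the Eps8 family members Eps8, Eps8l1 and Eps8l2. They were taken by gene symbol from a deposited table of expression values, and all 10 were found among its 23644 genes. The samples were RNA-seq libraries of 4T1, a tumour line derived from the mouse mammary gland. There were 3 libraries of control cells, labelled wild type, and 3 of cells labelled Carmil3 knockout, all grown in DMEM with serum. Per the labels the knockout cells were clones grown from single cells; the number of clones, the method of the knockout, and whether the 3 libraries of a group were separate cultures are not given there. The spread that the p-values rest on is thus that between these libraries and may be technical.

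An actin filament grows at its barbed end and loses subunits at its pointed end, and proteins that sit on either end set how long it becomes. Gelsolin cuts filaments in a calcium-dependent way and stays on the new barbed end, and CapG caps barbed ends without cutting. Adducin caps barbed ends and ties them to spectrin, tropomodulin caps pointed ends of filaments coated with tropomyosin, and Eps8 caps and bundles filaments and also joins Abi1 and Sos1 in a complex that activates Rac. CARMIL proteins, the family to which the product of Carmil3 belongs, bind the capping protein that competes for the same barbed ends.

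Among the 7 members expressed highly enough to be tested, the 2 that differed most between the groups were Gsn, which was lower in the knockout cells, and Add3, which was higher, and the sequence just upstream of the first annotated start of each is shown for reference (RefSeq, GRCm38.p6, plus strand; capitals mark CpG dinucleotides). The Gsn sequence covers chr2:35256109-35256358 and the Add3 sequence chr19:53140193-53140442.
Gsn: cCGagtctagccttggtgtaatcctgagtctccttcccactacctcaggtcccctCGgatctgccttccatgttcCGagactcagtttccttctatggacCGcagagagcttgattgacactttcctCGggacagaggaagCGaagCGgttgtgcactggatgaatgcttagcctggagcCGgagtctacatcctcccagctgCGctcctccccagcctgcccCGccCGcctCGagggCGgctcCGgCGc
Add3: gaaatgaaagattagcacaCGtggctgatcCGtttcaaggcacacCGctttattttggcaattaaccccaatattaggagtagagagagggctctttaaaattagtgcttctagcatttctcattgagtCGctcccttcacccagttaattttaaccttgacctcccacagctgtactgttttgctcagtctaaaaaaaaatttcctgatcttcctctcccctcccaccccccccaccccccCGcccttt
The 250 bases of Gsn hold 15 CpG dinucleotides and those of Add3 hold 5. Each gene has 2 further start windows in RefSeq, which hold 2 and 12 CpG for Gsn and 13 and 1 for Add3. The expression table gives 1 value per gene, so which start was in use was not measured. In the windows of both genes there was no match, on either strand, to the SRF CArG box, to GGAATG (the TEAD core) or to TGANTCA (AP-1). Of 32851 RefSeq windows of this length, 1.47%, 12.6% and 6.75% hold these motifs. Among all 15 windows found for 8 of the members, GGAATG occurred once each in Tmod1 and Eps8l2 and TGANTCA once in Tmod2. Tmod3 and Eps8 had no window in the table used.

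Values are FPKM, reads per kilobase of exon and per 1000000 reads. For most genes the length that gave whole reads was that of all annotated exons together. A gene whose transcripts in these cells are shorter than that is understated, by an amount not measured here. Orders and shares of different genes below are thus those of these values and depend in part on annotation. Totals of 17779114 to 19046799 reads per library were recovered from the spacing of the values. Carmil3 itself had about 0 to 4 reads in any library, a mean of 0.0241 FPKM in the control and 0.0120 FPKM in the knockout libraries (two-sided exact permutation p = 0.3, the smallest possible being 0.1), too few to check the labels by. The groups stood apart on the first principal component of all tested genes (71.4% of the variance). Knockout replicate 3 stood apart from the other knockout libraries on the next component, at -15.55 against 6.72 and 9.56 (11.8% of the variance). Defining markers of mammary epithelial tumour cells were present in control cells, and all 7 fell in the knockout cells. Their summed level was 1029 to 1126 FPKM in control and 428 to 473 FPKM in knockout libraries. Krt8 and Krt18 made up most of these sums, at means of 470 and 522 FPKM in control and 217 and 227 FPKM in knockout libraries. Krt19 fell from 5.10 to 1.03 FPKM and Krt7 from 27.9 to 0.149 FPKM. Epcam fell from 19.7 to 0.0875 FPKM, Cdh1 from 12.4 to 0.773 FPKM and Cldn4 from 20.3 to 0.0299 FPKM. Krt7, Epcam, Cdh1 and Cldn4 reached 1 FPKM in the control libraries alone. Of 4 listed fibroblast markers, Pdgfra and Col1a1 reached a group mean of 1 FPKM, and the list summed to 11.4 to 12.01 FPKM in control and 17.8 to 18.3 FPKM in knockout libraries. The 2 went opposite ways: Pdgfra rose from 10.1 to 17.6 FPKM (log2 change 0.75, adjusted p = 1.18e-05, limma) and makes up the higher sum, and Col1a1 fell from 1.501 to 0.271 FPKM (-0.97, adjusted p = 7.58e-05, limma), having reached 1 FPKM in the control libraries alone. Of 3 listed leukocyte markers Cd68 reached that level (3.18 and 2.75 FPKM) while Ptprc stayed at or below 0.0064 FPKM; the 2 listed endothelial and 2 listed erythroid or muscle markers summed to at most 0.111 FPKM. The part of the epithelial change in the results below was not tested.

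The 10 genes fell into 7 that were expressed and 3 that were barely detected. In control cells the order of mean levels was Capg, Gsn, Eps8, Add1, Tmod3, Add3 and Eps8l2, from 86.0 to 4.16 FPKM, and no 2 neighbours in that order overlapped over the 3 libraries. Eps8 and Add1 lay close, at 27.2 and 26.4 FPKM, with a spread (SD) of 1.89% and 0.378% of the mean over the 3 libraries. In knockout cells the order was Capg, Eps8, Gsn, Add1, Add3, Tmod3 and Eps8l2, and the ranges of Gsn and Add1, and of Add3 and Tmod3, overlapped. Eps8l1, Tmod1 and Tmod2 lay under 0.1 FPKM in every library. The 7 expressed genes had at least 1 FPKM in all 6 libraries and entered the test of the whole table, limma on log2(FPKM + 1) with Benjamini-Hochberg adjustment over 11171 genes. Of these 7, 1 rose and 3 fell at an adjusted p under 0.05, that is 57.1%, where 35.6% of all tested genes were called. By direction, 16.9% of all tested genes were called higher and 18.7% lower. The groups did not overlap for 5 of the 7, against 50.5% of all tested genes. The median log2 change of the 7 was -0.05, against -0.01 over all genes tested. In these bulk samples, fewer cells that express a gene and less of its RNA per cell cannot be told apart.

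**Figure D1:**
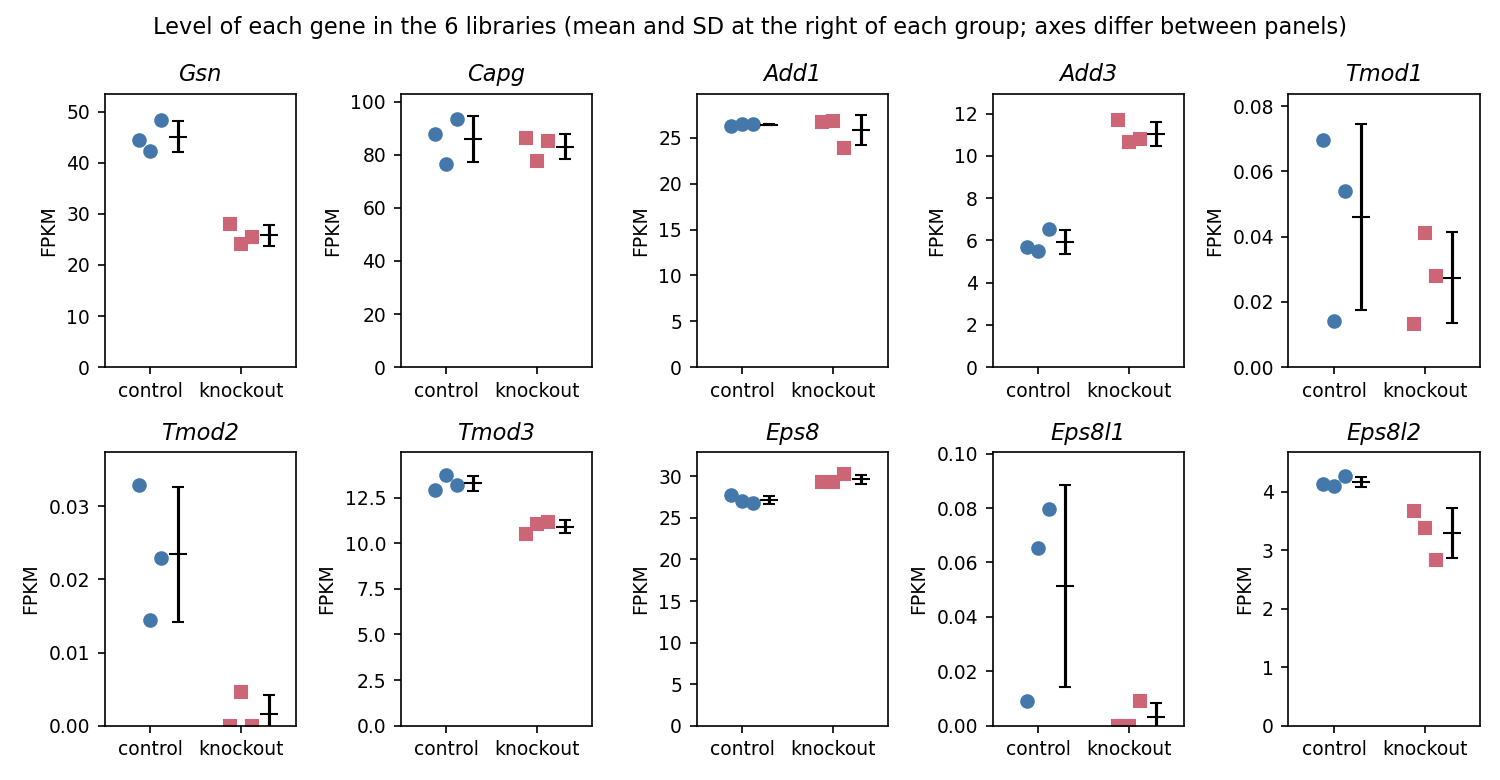
FPKM of each of the 10 genes in the 3 control (circles) and 3 knockout (squares) libraries, with the group mean and SD (n = 3) to the right; each vertical axis starts at 0 and has its own scale. Gsn, Tmod3 and Eps8l2 lie lower and Add3 and Eps8 higher in every knockout library than in any control library, while Capg and Add1 overlap.

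Gelsolin fell and CapG did not pass the test. Gsn (ENSMUSG00000026879, chromosome 2, 35256380 to 35307892, plus strand, GRCm38) measured 44.5, 42.4 and 48.3 FPKM in control replicates 1, 2 and 3, against 28.1, 24.0 and 25.4 FPKM in the knockout replicates in the same order. Every knockout library lay below every control library. The means were 45.1 ± 3.03 and 25.8 ± 2.07 FPKM (SD, n = 3), a ratio of knockout to control of 0.573 and a log2 change of -0.78 (SE 0.073, 95% confidence interval -0.95 to -0.61, adjusted p = 8.59e-05 by limma). These values rest on 1403 to 2857 reads per library. The up to 40 tested genes nearest to Gsn on its chromosome had a median log2 change of -0.04. Capg (chromosome 6, 72544391 to 72562983, plus strand) was the most abundant of the 10, with 87.9, 76.7 and 93.5 FPKM in control and 86.2, 77.6 and 85.1 FPKM in knockout libraries. The groups overlapped throughout, and the log2 change was -0.05 with an interval of -0.23 to 0.14 (adjusted p = 0.672, limma). The interval corresponds to a ratio between 0.851 and 1.10 on the FPKM + 1 scale, so a change of the size of that of Gsn lies outside it.

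As a share of the summed FPKM of Gsn and Capg, Gsn made up 33.6%, 35.6% and 34.1% in the control libraries and 24.6%, 23.6% and 23.0% in the knockout libraries. The mean share was lower by 10.7 percentage points in knockout cells, with no overlap of the groups. The two-sided exact permutation p was 0.1, the smallest that 3 against 3 libraries allow, and 0.133 after adjustment over the 4 family shares computed. Control replicate 2 had the lowest and control replicate 3 the highest level of Gsn, of Capg and of Add3 among the control libraries.

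Among the adducins, the gamma subunit gene Add3 rose and the alpha subunit gene Add1 did not pass the test. Adducin works as an assembly of alpha with beta or gamma subunits, and Add2 encodes the beta subunit. Add3 (ENSMUSG00000025026, chromosome 19, 53140443 to 53247399, plus strand) measured 5.70, 5.51 and 6.55 FPKM in control and 11.7, 10.6 and 10.8 FPKM in knockout libraries. The lowest knockout library lay well above the highest control library. The means were 5.92 ± 0.549 and 11.0 ± 0.559 FPKM (SD, n = 3), a ratio of 1.86 and a log2 change of 0.80 (SE 0.073, 95% confidence interval 0.63 to 0.97, adjusted p = 7.22e-05 by limma). Its neighbours on chromosome 19 had a median log2 change of -0.08. Add1 (chromosome 5, 34573664 to 34632308, plus strand) measured 26.3, 26.5 and 26.5 FPKM in control libraries, a coefficient of variation of 0.378%, and 26.7, 26.8 and 23.9 FPKM in knockout libraries. Knockout replicate 3 was the low one, and the other knockout libraries lay just above the control range. The log2 change of Add1 was -0.04 (interval -0.17 to 0.10, adjusted p = 0.663, limma), and it was 0.016 without knockout replicate 3 (adjusted p = 0.773, limma).

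Add3 made up 17.8%, 17.2% and 19.8% of the summed FPKM of Add1 and Add3 in control libraries and 30.4%, 28.4% and 31.1% in knockout libraries. The mean share was 18.3 ± 1.34% in control and 30.0 ± 1.41% in knockout cells (SD, n = 3; two-sided exact permutation p = 0.1, adjusted over the 4 shares 0.133). The summed level of the pair was 32.0, 32.0 and 33.1 FPKM in control and 38.4, 37.5 and 34.7 FPKM in knockout libraries, higher in each knockout library. Add2, which is outside the 10 genes and was singled out after its values were seen, measured 0.391, 0.344 and 0.427 FPKM in control and 1.83, 1.71 and 1.85 FPKM in knockout libraries. These rest on 62 to 81 reads in control and 320 to 354 reads in knockout libraries. Its ratio of knockout to control was 4.64 and its log2 change 1.01 (adjusted p = 2.53e-05, limma), and it entered the test through the knockout libraries alone. Its 40 nearest tested genes on chromosome 6 had a median log2 change of 0.20. With Add2 counted in, Add2 and Add3 together made up 19.2 ± 1.40% of adducin FPKM in control and 33.2 ± 1.57% in knockout cells (SD, n = 3).

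**Figure D2:**
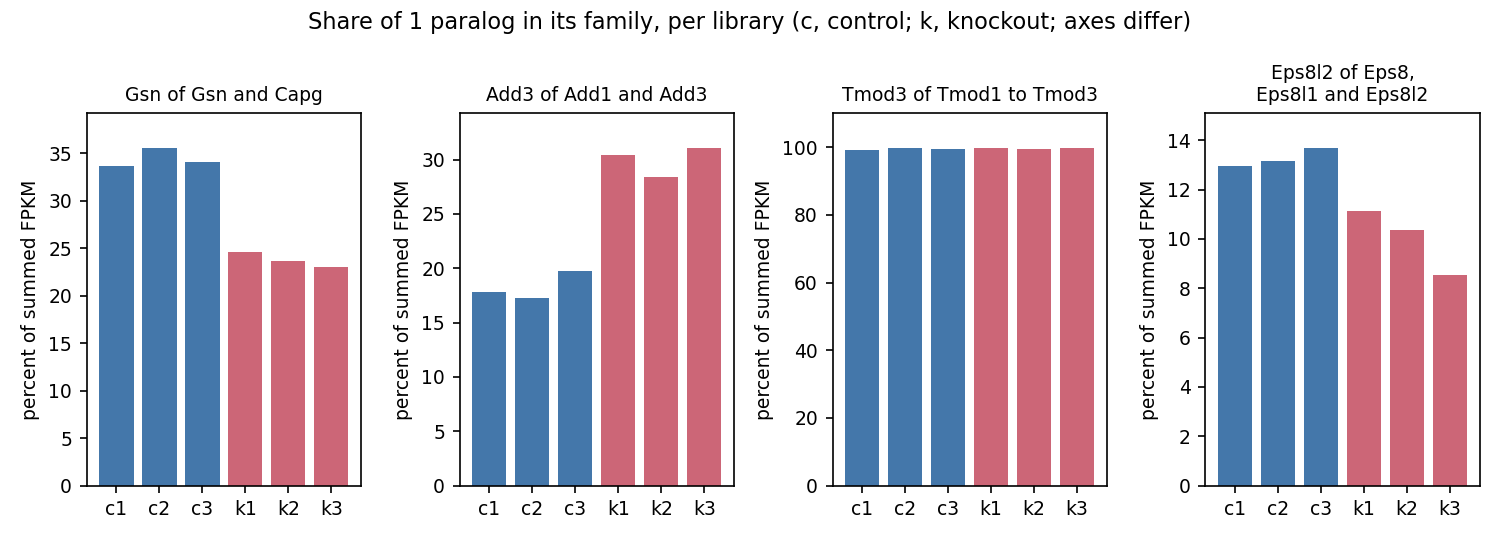
Share of 1 paralog in the summed FPKM of its family, in percent, for each control (c1 to c3) and knockout (k1 to k3) library; each bar is 1 library, axes start at 0 and differ between panels. Gsn drops from 33.6-35.6% to 23.0-24.6% of the sum of Gsn and Capg. Add3 goes from 17.2-19.8% to 28.4-31.1% of the sum of Add1 and Add3. Tmod3 holds over 99% of the sum of Tmod1, Tmod2 and Tmod3. The gelsolin superfamily relatives (Flii and Svil among them), Add2 and Tmod4 are not counted in these sums.

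Tmod3, the form found in most tissues, was the most abundant tropomodulin gene and fell slightly. Tmod3 (ENSMUSG00000058587, chromosome 9, 75497707 to 75559657, minus strand) measured 12.9, 13.7 and 13.2 FPKM in control and 10.5, 11.0 and 11.1 FPKM in knockout libraries. The groups did not overlap. The means were 13.3 ± 0.420 and 10.9 ± 0.343 FPKM (SD, n = 3), a ratio of 0.821 and a log2 change of -0.26 (SE 0.055, 95% confidence interval -0.39 to -0.14, adjusted p = 0.0065 by limma). Its neighbours had a median log2 change of 0.03. Tmod3 made up between 99.2% and 99.9% of the summed FPKM of Tmod1, Tmod2 and Tmod3 in every library, and the groups overlapped (two-sided exact permutation p = 0.3). That sum leaves out Tmod4, the remaining tropomodulin gene, which is outside the 10 genes and was listed at 0.833, 0.786 and 0.622 FPKM in control and 0.459, 0.409 and 0.771 FPKM in knockout libraries (13 to 26 reads), above Tmod1 and Tmod2 in every library. With Tmod4 counted in, Tmod3 made up 94.2 ± 0.885% of tropomodulin FPKM in control and 95.02 ± 1.49% in knockout cells (SD, n = 3; two-sided exact permutation p = 0.5).

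Tmod1, the form of red cells and striated muscle, and Tmod2, the neuronal form, were near the lower limit of the measurement and were not tested. Tmod1 was listed at 0.070, 0.014 and 0.054 FPKM in control and 0.013, 0.041 and 0.028 FPKM in knockout libraries, 10 and 6 reads in all. The ratio of the depth-scaled sums was 0.589 with a 95% interval of 0.176 to 1.79 (exact Clopper-Pearson, covering counting error only), so neither a rise nor a fall was detectable at this depth. Of its exon length 32.6% is shared with Tstd2 on the opposite strand (4.74 and 5.54 FPKM), and the strand setting of the counting is not known. Tmod2, which neighbours Tmod3 on chromosome 9, was listed at 0.033, 0.014 and 0.023 FPKM in control and 0, 0.0046 and 0 FPKM in knockout libraries. That is 7, 3 and 5 reads against 0, 1 and 0 reads, so the groups did not overlap, and the ratio of the sums was 0.0655 (interval 0.00155 to 0.425, counting error only).

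In the Eps8 family, Eps8l2 fell slightly and Eps8 was a little higher without passing the test. Eps8 (chromosome 6, 137477245 to 137654876, minus strand) measured 27.7, 27.0 and 26.8 FPKM in control and 29.3, 29.3 and 30.3 FPKM in knockout libraries, from 5928 to 6906 reads per library, the most of the 10 genes. Each knockout library lay above each control library. The means were 27.2 ± 0.514 and 29.7 ± 0.564 FPKM (SD, n = 3), and the log2 change was 0.12 (interval 0.01 to 0.23, adjusted p = 0.0773, limma). Its 40 nearest tested genes had a median log2 change of 0.15, and after subtraction of that median the value for Eps8 was -0.031 (adjusted p = 0.68, limma).

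Eps8l2 (ENSMUSG00000025504, chromosome 7, 141338880 to 141363020, plus strand) encodes an Eps8-like protein. It measured 4.13, 4.10 and 4.26 FPKM in control and 3.67, 3.39 and 2.83 FPKM in knockout libraries, from 276 to 429 reads. All knockout libraries were below the control range, with knockout replicate 3 lowest. The means were 4.16 ± 0.0857 and 3.30 ± 0.428 FPKM (SD, n = 3), a ratio of 0.791 and a log2 change of -0.27 (SE 0.082, adjusted p = 0.0328 by limma). This call was lost without control replicate 1, 2 or 3 or knockout replicate 2 (adjusted p = 0.0887, 0.0707, 0.089 and 0.0613, limma) and without the expression filter (0.0838), and it held without knockout replicate 3 with a log2 change of -0.19 (adjusted p = 0.0449, limma). Of its exon length 32.2% overlaps B230206H07Rik on the opposite strand, whose mean was 0.0834 FPKM in control libraries and 0.110 FPKM in knockout ones. As a share of the family's FPKM, Eps8l2 made up 13.0%, 13.2% and 13.7% in control and 11.1%, 10.3% and 8.54% in knockout libraries (two-sided exact permutation p = 0.1). Eps8l1 was listed at 0.0091, 0.065 and 0.080 FPKM in control and 0, 0 and 0.0091 FPKM in knockout libraries. This is 17 reads over the control and 1 over the knockout libraries, a ratio of 0.0578 (interval 0.00138 to 0.369, counting error only), and the groups overlapped because control replicate 1 also had 1 read.

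**Figure D3:**
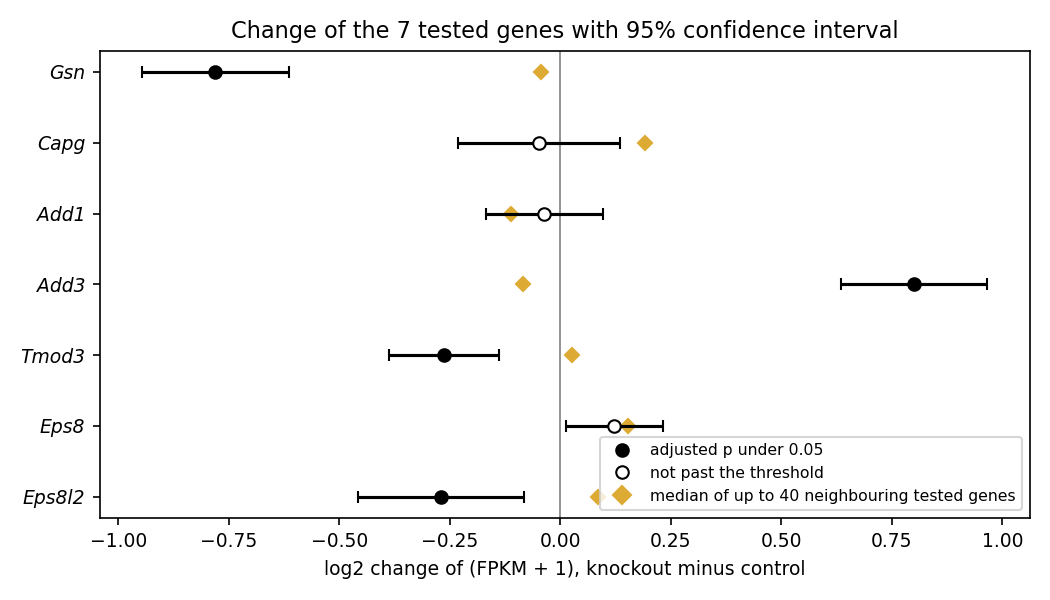
Log2 change of (FPKM + 1), knockout minus control, for the 7 tested genes with 95% confidence intervals from limma (3 against 3 libraries); filled circles passed an adjusted p under 0.05, and diamonds give the median change of up to 40 neighbouring tested genes. The intervals of Gsn (-0.95 to -0.61) and Add3 (0.63 to 0.97) lie on opposite sides of 0, and those of Capg and Add1 include it.

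The calls of Gsn, Add3 and Tmod3 held with each library left out, with log2 changes between -0.84 and -0.73 for Gsn, 0.76 and 0.86 for Add3 and -0.28 and -0.24 for Tmod3. Without knockout replicate 3 they were -0.77, 0.81 and -0.28 (adjusted p = 0.000761, 0.000538 and 0.00689, limma). None of the 7 passed a test against a 1.5-fold change by limma, where 2.78% of all tested genes did (1.06% higher and 1.73% lower); at an unadjusted p under 0.05 in that test, Add3 was higher and Gsn lower.

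The family relatives and direct partners of these proteins were described from a list of 43 genes, of which 25 were tested, 16 lay below the expression filter and 2 were not matched in the table. Of the 25, 3 rose and 10 fell (52%, against the 35.6% of all tested genes), and their median log2 change was -0.09. Add2, Dmtn and Baiap2l1 reached 1 FPKM in the libraries of 1 group alone, so the filter kept them through the group where they were high. With such genes set aside on both sides, 2 rose and 8 fell of 22 partners (45.5%, against 34.0% of 10877 genes), with a median log2 change of -0.08. In the full partner list, with no gene set aside, 1 was called higher and 7 lower when control replicate 1 was dropped. Dropping knockout replicate 3 instead gave 5 higher and 10 lower in that full list. Among the gelsolin superfamily relatives 2 of 6 were tested. Svil, which encodes the membrane-linked supervillin, fell from 10.4 ± 0.453 to 6.64 ± 0.835 FPKM (SD, n = 3; log2 change -0.58, adjusted p = 0.00119, limma). Flii, the flightless-1 gene, measured 47.1 ± 1.75 and 44.1 ± 2.98 FPKM and did not pass the test (adjusted p = 0.27, limma). The other 4 were below the filter. Scin, which encodes the gelsolin-like severing protein scinderin, measured 0.257, 0.356 and 0.356 FPKM in control and 0, 0 and 0.0184 FPKM in knockout libraries, that is 14, 19 and 20 reads against 0, 0 and 1. Vill, a villin-like gene, lay the other way, at 0.212, 0.217 and 0.206 FPKM in control and 0.429, 0.429 and 0.325 FPKM in knockout libraries, that is 17, 17 and 17 reads against 36, 35 and 26. The groups did not overlap for either gene, and neither was tested. Vil1 and Avil reached at most 0.103 FPKM.

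Of 6 tested genes of the spectrin skeleton, which adducin links to actin, 3 fell and 3 did not pass the test, beside 35.6% of all tested genes called and 18.7% called lower. Dmtn, which encodes the actin-bundling protein dematin, fell from 2.44 ± 0.170 to 0.859 ± 0.156 FPKM (SD, n = 3; log2 change -0.89) and was above 1 FPKM in the control libraries alone. Sptan1, the alpha-II spectrin gene, fell from 47.7 ± 1.43 to 37.6 ± 4.22 FPKM (log2 change -0.34, and -0.25 without knockout replicate 3, its lowest library). Epb41l1, a protein 4.1 gene, had a log2 change of -0.22 (adjusted p = 0.0268, limma). That call was lost without control replicate 1 or 3 or knockout replicate 2 (adjusted p = 0.0875, 0.0769 and 0.0638, limma), without the expression filter (0.0614) and after subtraction of the neighbours' median (0.28). The beta-II spectrin gene Sptbn1 measured 40.8 ± 0.693 and 35.9 ± 4.05 FPKM (adjusted p = 0.105, limma).

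Tropomyosins, which line the filaments that tropomodulin caps, were led by Tpm4. Of the 3 tested, 2 fell, beside 35.6% of all tested genes called and 18.7% called lower. Tpm4 fell from 243 ± 9.40 to 184 ± 12.4 FPKM (SD, n = 3, log2 change -0.40, adjusted p = 0.00202, limma). Tpm1 fell from 84.1 ± 3.46 to 65.4 ± 3.29 FPKM (SD, n = 3, log2 change -0.36, adjusted p = 0.00198, limma). The neighbours of Tpm4 had a median log2 change of -0.25, and after subtraction of that median the call of Tpm4 was lost (log2 change -0.16, adjusted p = 0.114, limma). Tpm3 measured 57.4 ± 1.99 and 59.6 ± 0.527 FPKM and did not pass the test.

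Of 6 tested Eps8 partners, 3 fell and 3 did not pass the test, beside the same 35.6% and 18.7% over all tested genes. Baiap2l1, which encodes a membrane-bending scaffold related to the Eps8 partner IRSp53, fell from 3.005 ± 0.312 to 0.722 ± 0.249 FPKM (SD, n = 3; log2 change -1.23, adjusted p = 9.87e-05, limma) and was above 1 FPKM in the control libraries alone. Abi1, the adaptor that joins Eps8 to Sos1, fell from 51.0 ± 0.519 to 42.8 ± 2.25 FPKM (log2 change -0.25, adjusted p = 0.00826, limma). Sos2, an exchange factor gene, had a log2 change of -0.19 (adjusted p = 0.0303, limma); the call was lost without control replicate 1, 2 or 3 or knockout replicate 2 (adjusted p = 0.111, 0.0704, 0.0563 and 0.0842, limma), without the expression filter (0.0527) and after subtraction of the neighbours' median (0.784). Sos1 and Baiap2, the IRSp53 gene, did not pass the test, with log2 changes of -0.01 and 0.16. Abi2, the paralog of Abi1, did not pass either, at 11.8 ± 0.301 FPKM in control and 13.1 ± 0.369 FPKM in knockout libraries (SD, n = 3). Its log2 change was 0.14 (adjusted p = 0.0681, limma). Abi2 was called higher with quantile normalization (adjusted p = 0.0423, limma) and without knockout replicate 3 (adjusted p = 0.0338, limma). Without knockout replicate 3, its lowest knockout library, Baiap2 was called higher (log2 change 0.22, adjusted p = 0.0101, limma).

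Of 7 tested genes of capping protein and its regulators, 2 rose and 1 fell, a share of 42.9% beside 35.6% of all tested genes. Capza2, an alpha subunit gene of capping protein, rose from 37.2 ± 0.584 to 44.2 ± 2.72 FPKM, and Mtpn, which encodes the capping protein inhibitor myotrophin, from 118 ± 7.94 to 142 ± 3.13 FPKM (SD, n = 3; log2 changes 0.24 and 0.26). Both calls were lost without control replicate 1 (adjusted p = 0.0528 and 0.0635, limma) and after subtraction of the neighbours' median (0.0902 and 0.203). Twf1, the twinfilin-1 gene, had a log2 change of -0.22; its call was lost without control replicate 1 or knockout replicate 1 or 2 (adjusted p = 0.121, 0.0836 and 0.087, limma), without the expression filter (0.066) and after subtraction of the neighbours' median (0.235). Capza1 and Capzb had log2 changes of 0.03 and 0.15 and did not pass the test; Capzb passed with quantile normalization (adjusted p = 0.0437, limma).

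**Figure D4:**
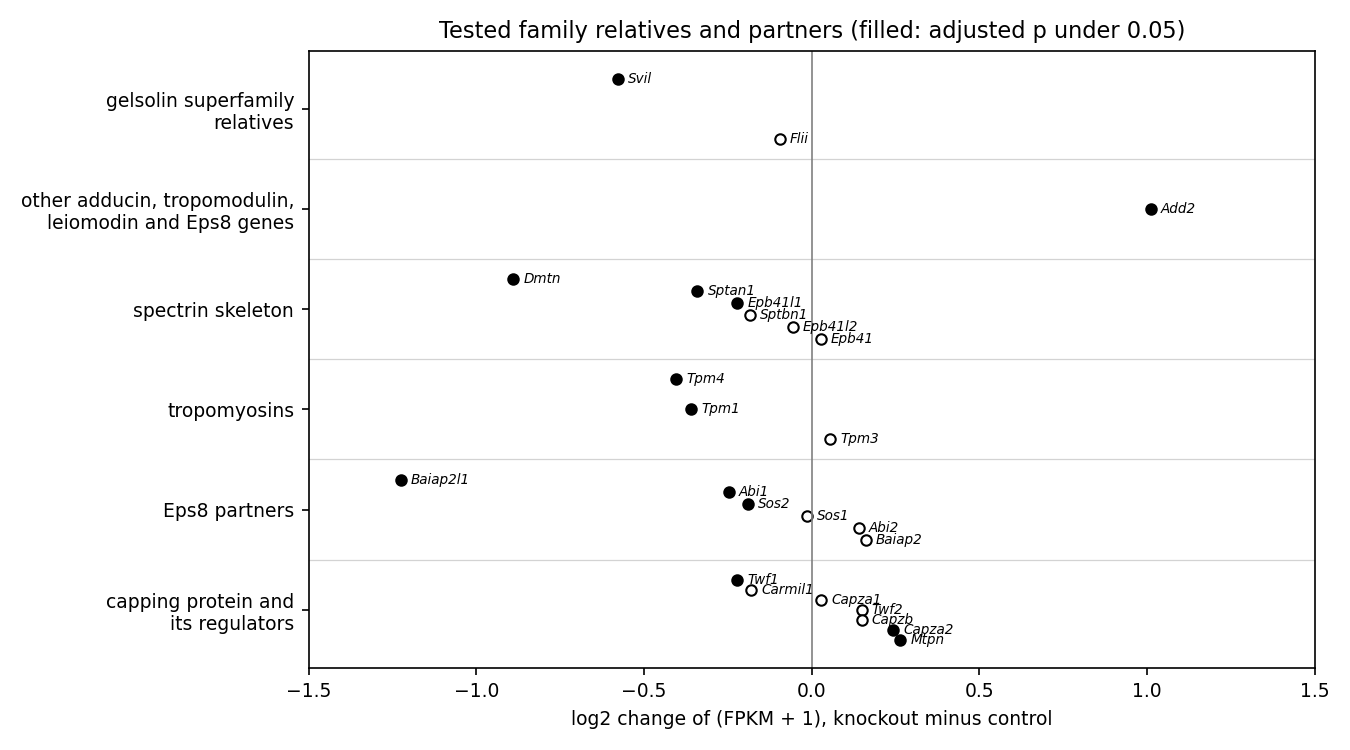
Log2 change of (FPKM + 1), knockout minus control, for the 25 tested relatives and partners, in rows by group; each circle is 1 gene, filled where the adjusted p by limma was under 0.05. Add2 lies farthest to the right at 1.01 and Baiap2l1 farthest to the left at -1.23. Both, and Dmtn in the spectrin row, reached 1 FPKM in the libraries of 1 group alone. In the gelsolin relative, spectrin, tropomyosin and Eps8 partner rows every filled circle lies left of 0. The calls of Epb41l1 and Sos2 in these rows were lost with some single libraries left out. Of all tested genes 18.7% were called lower.

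Genes with values most like those of Add3 and Gsn over the 6 libraries were sought among 7059 tested genes whose mean reached 5 FPKM, by the Euclidean distance of log2(FPKM + 1) after centring each gene. The 6 points fall into 2 groups, so likeness mostly reflects a similar difference between the groups. Nearest to Add3 were Mxd3 (distance 0.0992), which encodes a partner of MAX in transcription, the kinase gene Sik1 (0.105) and the cold-inducible RNA-binding protein gene Cirbp (0.116). Mxd3 measured 7.40, 7.43 and 8.47 FPKM in control and 15.1, 14.8 and 14.1 FPKM in knockout libraries. Nearest to Gsn were the chemokine gene Cx3cl1 (0.0918), the syndecan-1 gene Sdc1 (0.0992) and the signalling inhibitor gene Spry4 (0.148). Sdc1 had almost the levels of Gsn itself, at 46.7, 42.8 and 47.6 FPKM in control and 28.1, 25.4 and 26.9 FPKM in knockout libraries.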

How the data were processed

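RNA was sequenced from 3 control and 3 Carmil3 knockout libraries of 4T1 cells, grouped by their titles. The authors deposited 1 table of FPKM values; the unit was read from the values. Per the submitters' processing notes, the tools were HTSeq 0.6.0, TopHat2 2.0.12, TopHat, Bowtie2, Bowtie and CASAVA, and the build was mm10. The sources used here do not give the role of each tool, the annotation or the strand setting, so overlapping genes on opposite strands may share reads.

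Identifiers were matched to GENCODE M21 (GRCm38, also called mm10), which gave a symbol for 23587 of 23644 rows. For most genes the value multiplied by the union exon length and by 1 total per library is a whole number of reads: of the values worth at most 500 reads, 91.9% to 92.2% were whole with a tolerance of 0.02 read. Read numbers printed are these recovered ones; they were whole for 9 of the 10 genes, and those of Add3 and of Carmil3 are approximate. The listed genes sum to 108.7% to 109.1% of the recovered total, so depths are relative.

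Values were tested as log2(FPKM + 1) by limma 3.58.1 (R 4.3.3; robust eBayes with a trend). The 11171 genes that reached 1 FPKM in 3 or more libraries were fitted together, p-values were adjusted over all of them by Benjamini-Hochberg, and 0.05 was the threshold. For low genes this scale understates a change. Shares were compared with two-sided exact permutation tests. Python 3.11.15 with scipy 1.17.1, pandas 2.3.3, numpy 2.4.6 and matplotlib 3.10.9 did the rest.

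The members and lists were chosen with earlier results of these data known. All 10 members are described; called partners were named where the higher group mean reached 2 FPKM, at most 4 per group, and Add2, which is below that level, and the uncalled or untested partners beside them (Tmod4, Scin and Vill among them) were picked after their values were seen. Alternatives were leaving out each library, a replicate block, a limma test against a 1.5-fold change, plain eBayes, quantile or median-of-ratios normalization, pseudocounts of 0.1 or 5, filtering at 5 FPKM or not at all, centring (subtracting the median change of 20 tested genes to either side), and voom on the recovered reads. Counting Add2 in the adducin share and Tmod4 in the tropomodulin share was added after seeing the data.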

Additional observations from a re-analysis of the deposited data

How the results depend on the processing

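The counts of members called, 1 higher and 3 lower, stayed within 1.5 times of these values under the alternatives other than the limma test against a 1.5-fold change, which called 0 higher and 0 lower (1 and 1 at an unadjusted p under 0.05). With each library left out in turn, 1 member was called higher and 2 to 3 lower, and the log2 change of Capg lay between -0.13 and 0.013 and that of Add1 between -0.064 and 0.016. For the partners the counts of 3 higher and 10 lower became 5 higher with quantile normalization, 1 higher after centring on neighbours, and 1 higher and 1 lower in the test against a 1.5-fold change (Add2 and Baiap2l1, which reached 1 FPKM in 1 group alone); with 1 library left out, 1 to 5 were higher and 7 to 10 lower. Members that were not called changed sign in these cases: Capg had a log2 change of 0.013 without control replicate 3, Add1 0.016 without knockout replicate 3 and 0.075 after centring on neighbours, and Eps8 -0.031 after centring on neighbours. Eps8l2 was not called without the expression filter (adjusted p = 0.0838, limma) and was not tested with a filter of 5 FPKM. The cause of these shifts was not tested. The family shares kept their direction, with differences between knockout and control of -11.1 to -10.1 percentage points for Gsn, 11.1 to 12.5 for Add3, 0.131 to 0.422 for Tmod3 and -3.83 to -2.54 for Eps8l2 with each library left out; with Tmod4 counted in, that for Tmod3 was 0.82.

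Whether the replicate numbers pair the libraries could not be settled. Deviations of same-numbered libraries from their group means correlated at -0.06, 0.15 and 0.10. Those of differently numbered libraries correlated at -0.20 to 0.08, and so few weak correlations cannot decide it. With the replicate number as a block, 1 member was higher and 3 lower, and 4 partners were higher and 10 lower. In the paired form the shares differed by the same -10.7, 11.7, 0.263 and -3.27 percentage points, with exact sign-flip p = 0.25, 0.25, 0.5 and 0.25, where 3 pairs cannot go below 0.25. Depth limits what can be said of Tmod1, Tmod2 and Eps8l1, which had at most 9 reads in any library.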
